A study of Homo sapiens with 6 samples.

Results

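The genes described here are 9 members of the Notch pathway in RBE cells, chosen by name: the receptors NOTCH1, NOTCH2 and NOTCH3, the ligands JAG1 and JAG2, the nuclear factors RBPJ and MAML1, and the target genes HES1 and HEY1. Each symbol matched 1 Ensembl identifier, so 9 of the 63186 genes in the count table were members, and all 9 passed the filter on low counts that kept 15911 genes. RBE is a long-used human cell line from an intrahepatic cholangiocarcinoma, a tumour that arises from bile ducts inside the liver. RNA-seq compared cells transfected with siRNA against CHAF1A (si-CHAF1A, 3 libraries) with cells given a control siRNA (si-Ctrl, 3 libraries). Both groups were transfected with Lipofectamine 3000 at about 60% confluency, received fresh medium after 24 h and were harvested at 48 h. All libraries come from a single cell line, and the number of siRNAs used and their sequences are not stated in the labels. CHAF1A is the largest part of chromatin assembly factor CAF-1, which deposits histones on newly replicated DNA, and the series asks how this factor and the RNA acetyltransferase NAT10 shape chromatin and transcription in this cancer.

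Notch signalling passes between touching cells. A ligand of the Jagged or Delta family on one cell binds a Notch receptor on its neighbour. ADAM proteases and then gamma-secretase cut the receptor, and its intracellular part moves to the nucleus, where it joins RBPJ and a Mastermind-like coactivator such as MAML1 to switch on HES and HEY repressor genes. In the liver, JAG1 and NOTCH2 are known for their part in bile duct formation, and inherited loss of either gene causes Alagille syndrome, in which bile ducts are too few.

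The libraries held between 15643381 and 20918997 counts. CHAF1A RNA stood at 11.1, 12.9 and 11.2 CPM (read counts relative to the library total, with TMM scaling) in the si-CHAF1A libraries, against 51.5, 59.8 and 51.0 CPM in the si-Ctrl libraries. Library si-Ctrl 2 stood apart from the other controls: its counts differed from theirs with a chi-square per degree of freedom of 13.5 and 13.7, against 2.30 between those others. All 7 listed cholangiocyte markers were detected and tested, with a summed level of 2450 to 2660 CPM in si-CHAF1A and 1920 to 2260 CPM in si-Ctrl libraries. The immune list (4 markers, 0 tested) summed to 0.238 to 0.517 CPM in si-CHAF1A and 0.657 to 0.832 CPM in si-Ctrl libraries. Of 6 hepatocyte markers, HNF4A was the 1 that was tested. HNF4A stood at 51.9, 42.0 and 45.4 CPM in si-CHAF1A libraries, against 33.4, 41.4 and 35.55 CPM in si-Ctrl libraries. Its level was higher after knockdown (log2 fold change 0.33, edgeR adjusted p = 0.0143). ALB reached at most 0.574 CPM in any library.

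Of the 9 Notch genes, 3 were higher after CHAF1A knockdown (NOTCH1, NOTCH3 and RBPJ), 2 were lower (NOTCH2 and JAG1), and 4 did not pass the test (JAG2, MAML1, HES1 and HEY1). The test was edgeR's quasi-likelihood test with Benjamini-Hochberg adjustment over all tested genes, at an adjusted p of 0.05. The 5 calls are 55.6% of the members, where 37.8% of all tested genes were called (18.5% higher, 19.3% lower). The median size of the change was 0.302 on the log2 scale over the members and 0.260 over all tested genes, so as a set the members lay near the background, and the values of single genes are what follows. JAG1 had the smallest adjusted p of the 9. NOTCH3 was the 1 member that changed at least 2-fold, at a very low level, where 5.65% of all tested genes did so. It passed the filter on low counts only through the si-CHAF1A libraries, where it was high. In 6 of the 9 genes the libraries of the groups did not overlap, a pattern seen in 48.2% of all tested genes.

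NOTCH2 was the receptor with the most RNA and it fell. NOTCH2 (ENSG00000134250, chr1:119911553-120069626, minus strand) stood at 321, 328 and 318 CPM in si-CHAF1A libraries, against 396, 428 and 400 CPM in si-Ctrl libraries. Every knockdown library lay below every control library. The means were 322 ± 5.32 CPM in si-CHAF1A and 408 ± 17.4 CPM in si-Ctrl (SD, n = 3 each), a 1.26-fold fall (log2 fold change -0.34, SE 0.06, 95% interval -0.47 to -0.21, edgeR adjusted p = 0.000348). NOTCH2 shares long stretches of sequence with its partial copies NOTCH2NLA, NOTCH2NLB and NOTCH2NLC, and reads of these could be split between the loci. Each copy was at 7.57 CPM or less in every library, and none of these 3 passed the test (adjusted p = 0.185 to 0.298). NOTCH2NLR stayed under the filter. Fewer expressing cells and less RNA per cell cannot be told apart in such bulk libraries, here and for the genes below. With the counts of all 4 copies added to those of NOTCH2, the log2 fold change was again -0.34.

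NOTCH1, the receptor first linked to leukaemia, moved the other way. NOTCH1 (ENSG00000148400, chr9:136494433-136545786, minus strand) stood at 114, 114 and 117 CPM in si-CHAF1A libraries, against 83.9, 98.4 and 79.1 CPM in si-Ctrl libraries. The knockdown libraries were close together and all above the controls, among which si-Ctrl 2 was highest. The rise was 1.32-fold (log2 fold change 0.40 with an interval of 0.23 to 0.57, SE 0.08, edgeR adjusted p = 0.000865).

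NOTCH3, a receptor best known from the muscle cells of small arteries, had very little RNA. NOTCH3 (ENSG00000074181, chr19:15159038-15200981, minus strand) had 32, 39 and 26 counts in si-CHAF1A libraries, against 21, 9 and 8 counts in si-Ctrl libraries, or 1.902, 2.24 and 1.46 CPM against 1.34, 0.455 and 0.459 CPM. The highest control, si-Ctrl 1, was just under the lowest knockdown library. The fitted rise was 2.54-fold (log2 fold change 1.34, SE 0.40, 95% interval 0.51 to 2.18, edgeR adjusted p = 0.0136). This call rested on few counts: it was lost without si-CHAF1A 2 (log2 fold change 1.19, adjusted p = 0.0721) and without si-Ctrl 3 (1.09, adjusted p = 0.0602), and without si-Ctrl 1 the log2 fold change was 2.01. Fibroblast and endothelial markers are given beside NOTCH3, and 1 gene of each list was called. The fibroblast list (COL1A1, COL1A2, DCN and PDGFRB, of which 2 of 4 were tested and 1 rose) summed to 15.7 to 35.6 CPM in si-CHAF1A and 8.66 to 11.5 CPM in si-Ctrl libraries. The endothelial list (PECAM1, VWF, CDH5 and KDR, of which 2 of 4 were tested and 1 rose) summed to 6.60 to 8.86 CPM in si-CHAF1A and 2.41 to 3.77 CPM in si-Ctrl libraries. The members that rose were PDGFRB, a growth factor receptor, with a log2 fold change of 2.04, and VWF, a clotting protein, with 2.54. VWF had 9, 19 and 6 counts in si-Ctrl libraries, and was kept by the filter through its si-CHAF1A libraries. COL1A2 was at 5.47 CPM in si-CHAF1A 1 and at 0.172 CPM or less in the other libraries, and DCN was at 0 in all control libraries and in si-CHAF1A 2. Without si-CHAF1A 1, the library with most of the COL1A2 and DCN counts, the log2 fold change of NOTCH3 was 1.33 (adjusted p = 0.0433), while those of PDGFRB and VWF were still 1.89 and 2.28. The part of these marker genes in the NOTCH3 result was not tested.

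**Figure D1:**
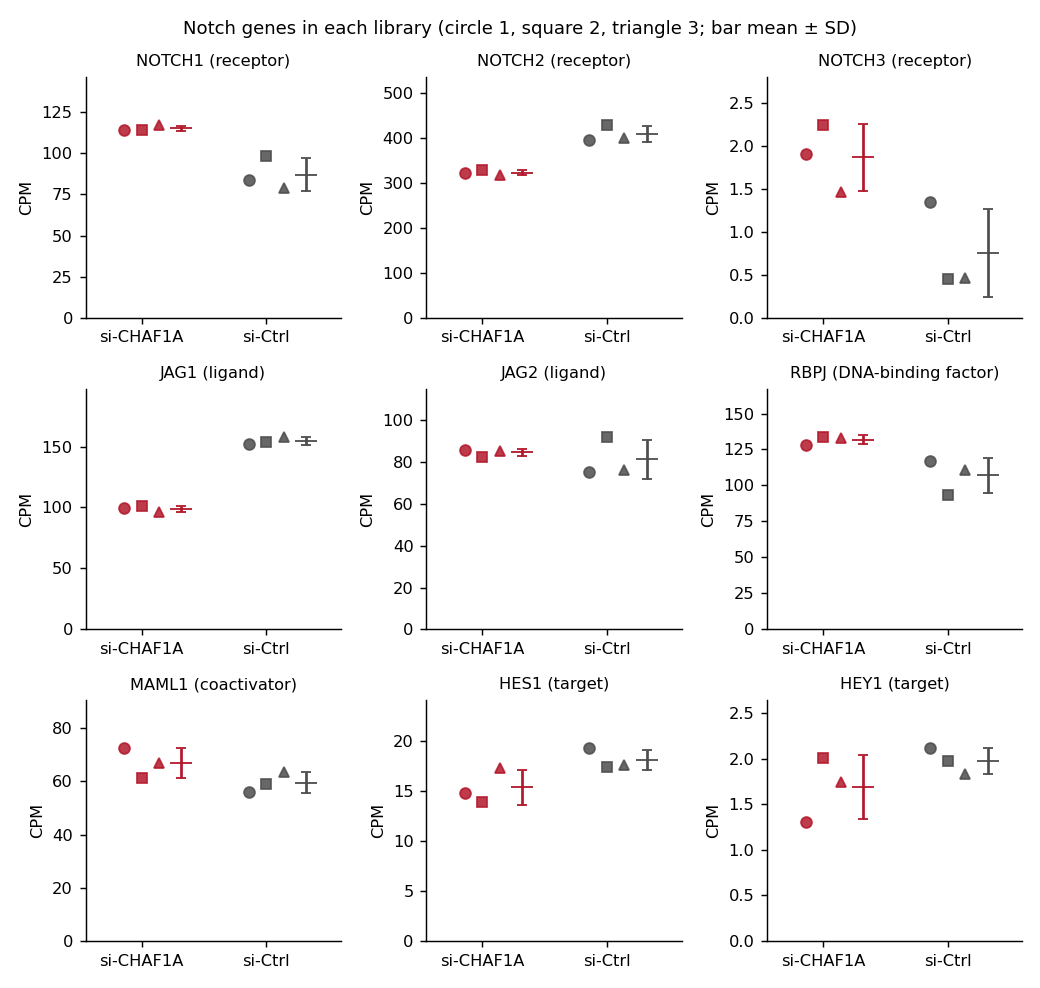
Level of each Notch gene in CPM (vertical axes, linear, starting at 0) in the 3 si-CHAF1A libraries (red, left) and the 3 si-Ctrl libraries (grey, right); circles, squares and triangles are libraries 1, 2 and 3, and bars are the mean ± SD. The groups separate clearly for JAG1 and NOTCH2, while si-Ctrl 2 departs from the other controls for NOTCH1, JAG2 and RBPJ.

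JAG1, the main ligand of bile duct development, showed the clearest change of the 9 genes. JAG1 (ENSG00000101384, chr20:10637684-10673999, minus strand) stood at 99.8, 101 and 96.2 CPM in si-CHAF1A libraries, against 152, 154 and 158 CPM in si-Ctrl libraries. Within each group the values lay within a few CPM of each other, and the groups were far apart. JAG1 averaged 99.0 ± 2.55 CPM in si-CHAF1A and 155 ± 3.02 CPM in si-Ctrl (SD, n = 3 each), a 1.56-fold fall (log2 fold change -0.64, SE 0.06, 95% interval -0.78 to -0.51, edgeR adjusted p = 1.16e-06). By p-value it was number 364 of the 15911 tested genes.

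JAG2, the second Jagged ligand, did not pass the test. JAG2 (ENSG00000184916, chr14:105140981-105168824, minus strand) stood at 85.8, 82.5 and 85.5 CPM in si-CHAF1A libraries, against 75.5, 92.1 and 76.2 CPM in si-Ctrl libraries. Its si-Ctrl 2 value was above all other libraries and its other 2 control values were below them. The log2 fold change was 0.06 (95% interval -0.11 to 0.23, edgeR adjusted p = 0.619). Without si-Ctrl 2 it was 0.15 and passed the test (adjusted p = 0.0217).

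**Figure D2:**
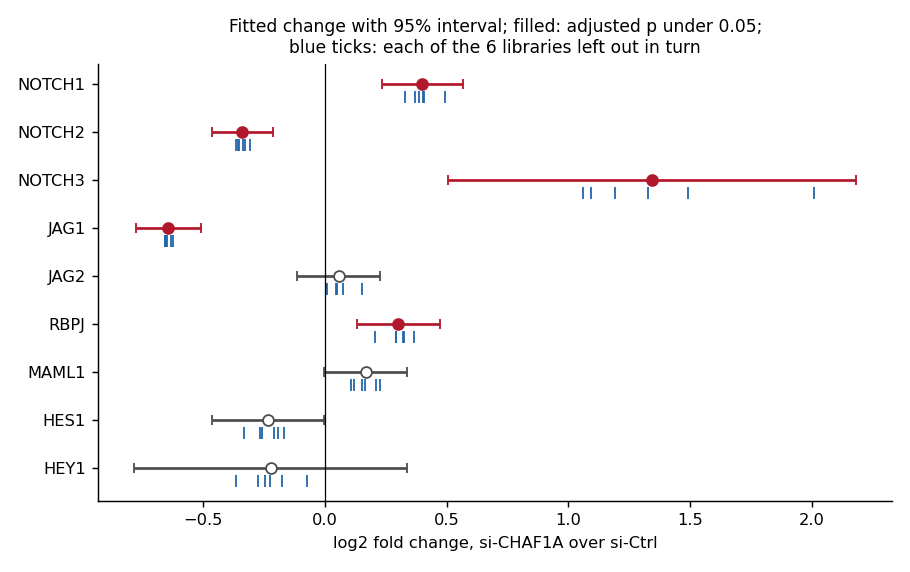
Fitted log2 fold change of si-CHAF1A over si-Ctrl (horizontal axis) for each Notch gene, with its 95% interval; filled red points passed the test at an adjusted p of 0.05 and open grey points did not, and blue ticks give the value when each of the 6 libraries is left out in turn. JAG1 at -0.64 has the narrowest spread of ticks relative to its size, and NOTCH3 at 1.34 the widest interval.

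Since the members within each class moved differently, their proportions differed between the groups. Levels of different genes were compared as CPM per kb of the principal transcript in GENCODE 29. NOTCH2 was 2.30, 2.35 and 2.22 times NOTCH1 in si-CHAF1A libraries, against 3.85, 3.55 and 4.13 times in si-Ctrl libraries. NOTCH2 remained the leading receptor in every library, but its share of the summed NOTCH1, NOTCH2 and NOTCH3 level was 68.7% to 69.7% in si-CHAF1A and 78.0% to 80.4% in si-Ctrl libraries. JAG1 was 1.14, 1.20 and 1.11 times JAG2 in si-CHAF1A libraries, against 1.98, 1.64 and 2.04 times in si-Ctrl libraries. The groups did not overlap, but how near to level the pair stood depends on the length used: per kb of all exons joined, JAG1 was 0.799, 0.843 and 0.774 times JAG2 in si-CHAF1A libraries, against 1.39, 1.15 and 1.43 times in si-Ctrl libraries. The summed level of both ligands was 31.2 ± 0.330 CPM per kb in si-CHAF1A and 40.0 ± 1.57 CPM per kb in si-Ctrl (SD, n = 3 each). For the 3 receptors the sum was 40.9 ± 0.376 in si-CHAF1A and 45.3 ± 2.53 CPM per kb in si-Ctrl. An exact two-sided permutation test of the log2 ratios gave p = 0.1 for both NOTCH2 over NOTCH1 (a difference of -0.75) and JAG1 over JAG2 (-0.71), which is the smallest p that 3 against 3 libraries allow. It adds no support, since the single genes already fixed it. NOTCH2 and NOTCH1 each separated the groups, in opposite directions, and the JAG1 groups lay further apart than the spread of JAG2.

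**Figure D3:**
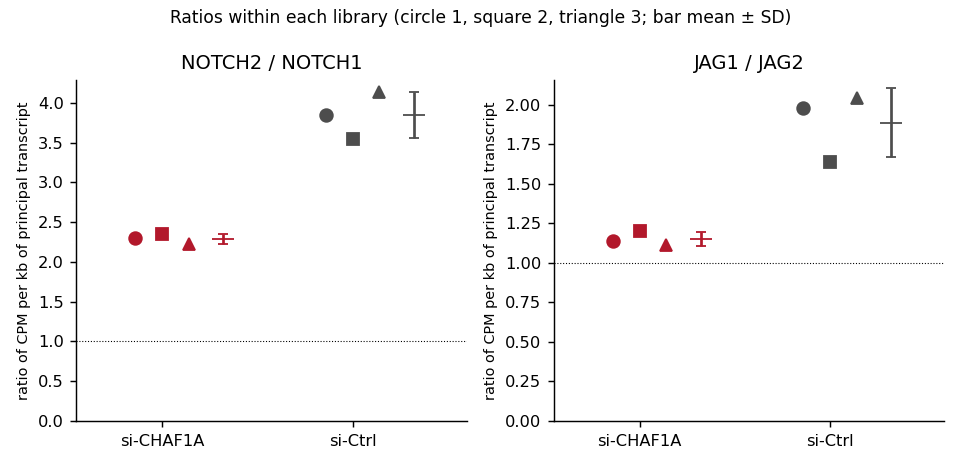
Ratio of NOTCH2 to NOTCH1 (left) and of JAG1 to JAG2 (right), each as CPM per kb of the principal transcript, in the 3 si-CHAF1A libraries (red) and the 3 si-Ctrl libraries (grey); symbols are libraries 1, 2 and 3, bars the mean ± SD, and the dotted line marks equal levels. Both ratios are lower in all si-CHAF1A libraries, and the JAG1 to JAG2 ratio there lies between 1.11 and 1.20 with this length, and below the line (0.774 to 0.843) per kb of all exons joined.

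RBPJ, the DNA-binding protein that carries the receptor's intracellular part to its target genes and otherwise represses them, rose. RBPJ (ENSG00000168214, chr4:26163455-26435131, plus strand) stood at 128, 134 and 133 CPM in si-CHAF1A libraries, against 117, 93.0 and 111 CPM in si-Ctrl libraries. All knockdown libraries were above all controls, and si-Ctrl 2 was the lowest. The rise was 1.23-fold (log2 fold change 0.30, SE 0.08, 95% interval 0.13 to 0.47, edgeR adjusted p = 0.00737), and 1.15-fold without si-Ctrl 2 (log2 fold change 0.20, adjusted p = 0.000548). The 4 RBPJ pseudogenes in the table, RBPJP2, RBPJP5, RBPJP6 and RBPJP7, were at 0 counts in every library, and the related gene RBPJL was at 0.297 CPM or less.

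MAML1, the coactivator that binds RBPJ and the cut receptor together, did not pass the test. MAML1 (ENSG00000161021, chr5:179732850-179777286, plus strand) stood at 72.4, 61.4 and 66.9 CPM in si-CHAF1A libraries, against 55.9, 59.2 and 63.7 CPM in si-Ctrl libraries. The groups overlapped, with si-Ctrl 3 above si-CHAF1A 2. The log2 fold change was 0.17 (95% interval -0.003 to 0.34, edgeR adjusted p = 0.115), and with library totals in place of TMM scaling it was 0.22 and passed (adjusted p = 0.0478).

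HES1, the repressor most often read as a sign of active Notch, was slightly lower in every knockdown library but did not pass the test. HES1 (ENSG00000114315, chr3:194136145-194138732, plus strand) stood at 14.8, 13.9 and 17.3 CPM in si-CHAF1A libraries, against 19.2, 17.4 and 17.5 CPM in si-Ctrl libraries. The gap between si-CHAF1A 3 and si-Ctrl 2 was small. The log2 fold change was -0.23 (SE 0.11, 95% interval -0.46 to -0.004, edgeR adjusted p = 0.102). It passed without si-CHAF1A 3 (log2 fold change -0.33, adjusted p = 0.0498) and without si-Ctrl 2 (-0.26, adjusted p = 0.0464).

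HEY1, a related repressor, was at a low level. HEY1 (ENSG00000164683) had 22, 35 and 31 counts in si-CHAF1A libraries, against 33, 39 and 32 counts in si-Ctrl libraries. The groups overlapped, and si-CHAF1A 1 was lowest. The log2 fold change was -0.22 with a wide interval (-0.78 to 0.34, edgeR adjusted p = 0.546), and it was -0.07 without si-CHAF1A 1.

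The promoter of HES1, a direct target of the RBPJ complex, is printed beside 1 of the RBPJ windows. These were the windows of members that held TGGGAA, the core letters of the motif that RBPJ binds. RefSeq windows of 300 bases around annotated starts (250 bases before to 50 after, GRCh38.p14) were at hand for 8 of the 9 members, 12 windows in all, since RBPJ has several starts. Capitals mark TGGGAA or its reverse complement TTCCCA. Both windows are 5' to 3' on the plus strand.
HES1, chr3:194135898-194136197: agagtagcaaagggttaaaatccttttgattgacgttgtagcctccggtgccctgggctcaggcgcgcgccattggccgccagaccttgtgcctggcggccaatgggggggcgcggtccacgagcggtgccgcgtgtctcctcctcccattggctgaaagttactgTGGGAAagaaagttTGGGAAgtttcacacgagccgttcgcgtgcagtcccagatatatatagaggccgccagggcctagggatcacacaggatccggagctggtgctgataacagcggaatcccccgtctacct
RBPJ, chr4:26319496-26319795: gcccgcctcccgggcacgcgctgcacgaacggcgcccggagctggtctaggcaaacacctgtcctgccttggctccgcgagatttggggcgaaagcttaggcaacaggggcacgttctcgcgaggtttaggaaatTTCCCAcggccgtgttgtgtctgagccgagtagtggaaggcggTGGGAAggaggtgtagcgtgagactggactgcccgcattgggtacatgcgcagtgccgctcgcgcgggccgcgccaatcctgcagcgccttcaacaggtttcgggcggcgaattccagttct
In the HES1 window the motif began at positions 167 and 181, counted from 1 at the 5' end, in the same direction. In the RBPJ window it began at positions 136 and 179, in opposite directions. The other 10 windows, among them those of the other RBPJ starts, held no TGGGAA on either strand. Over all 35116 windows of the same length, 24.0% held it at least once and 3.80% held 2 or more. The HES1 window also held CACNAG, the N-box that HES proteins bind, 4 times over both strands with no overlap with TGGGAA. At least 1 N-box was in 38.0% of all windows, and 4 or more were in 0.293%. These matches describe letters in a window and not bound sites.

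Ranked by CPM per kb of transcript in si-Ctrl cells, NOTCH2 came first (35.8 ± 1.53), then JAG1 (26.0 ± 0.508), RBPJ (17.9 ± 2.08), JAG2 (13.9 ± 1.61), HES1 (11.5 ± 0.646), MAML1 (10.4 ± 0.680) and NOTCH1 (9.37 ± 1.08), with HEY1 (0.860 ± 0.0601) and NOTCH3 (0.0868 ± 0.0591) far below. In this order RBPJ overlapped JAG2 in its library values, and MAML1 overlapped both of its neighbours. In si-CHAF1A cells RBPJ (22.0 ± 0.535) stood above JAG1 (16.7 ± 0.429) in every library, whereas JAG1 was above RBPJ in every si-Ctrl library. Dividing by the length of all exons joined gave the same exchange of RBPJ and JAG1. Other places in the order depend on the length. Per kb of all exons joined, JAG1 (10.6) was under JAG2 (13.2), MAML1 (11.3) and NOTCH1 (11.1) in si-CHAF1A cells, and in si-Ctrl cells JAG2 (12.7) was above RBPJ (11.6) and MAML1 (10.0) above HES1 (8.77).

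The rest of the pathway was described from a list of 80 further genes, of which 71 were tested. Of these 21 were higher and 18 lower, so 54.9% were called, where 37.8% of all tested genes were (18.5% higher, 19.3% lower). The median log2 fold change was 0.14 over the list and 0.00 over all tested genes, and the median size was 0.272 against 0.260. Changes went both ways in most classes. At least 2-fold changes that passed were seen in 3 genes, and in 5.65% of all tested genes. The class counts below are small, set beside those shares as descriptions, and no class was tested as a set. Among ligands, DLL4, best known from growing blood vessels, was higher at 1.19 ± 0.156 CPM in si-CHAF1A and 0.495 ± 0.212 CPM in si-Ctrl (SD, n = 3 each; log2 fold change 1.22, edgeR adjusted p = 0.022). Its 4, 13 and 10 counts in si-Ctrl libraries lay near or under the filter's minimum of 10. DLL4 was thus kept through its si-CHAF1A libraries, at 20, 18 and 24 counts. Its call was lost without si-CHAF1A 1 (1.22, adjusted p = 0.0598), si-CHAF1A 3 (1.12, adjusted p = 0.0866) or si-Ctrl 1 (0.94, adjusted p = 0.099). Of the endothelial markers given with NOTCH3, VWF rose, and CDH5 and KDR stayed under the filter. PECAM1 did not pass (log2 fold change 0.49, edgeR adjusted p = 0.111) and its groups overlapped. The part of these markers in the DLL4 result was not tested. DLK2 did not pass, and DLL1, DLL3, DLK1 and the fourth receptor, NOTCH4, stayed under the filter on low counts.

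Of the 9 proteases that cut Notch or its ligands, 5 were higher and 1 was lower, where 18.5% and 19.3% of all tested genes were. Gamma-secretase subunits were among them: APH1B stood at 22.8 ± 1.19 CPM in si-CHAF1A and 12.8 ± 2.44 CPM in si-Ctrl (log2 fold change 0.84, edgeR adjusted p = 8.3e-05), and NCSTN, which admits the substrate, rose by 0.39 on the log2 scale. The 2 ADAM proteases split: ADAM17 rose by 0.33 and ADAM10, the usual first cutter of ligand-bound Notch, fell by 0.35 on the log2 scale.

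Enzymes that place sugars on Notch receptors were higher in 3 and lower in 3 of 9 (66.7% called, against 37.8% of all tested genes). EOGT, which adds N-acetylglucosamine to epidermal growth factor-like repeats, had the largest fall of the whole list, at 7.47 ± 1.12 CPM in si-CHAF1A and 24.1 ± 1.30 CPM in si-Ctrl (a log2 fold change of -1.69, or 3.23-fold, with SE 0.12 and edgeR adjusted p = 3.18e-08). The xylosyltransferases XXYLT1 and GXYLT1, which lengthen another sugar chain on these repeats, fell by 0.80 and 0.36 on the log2 scale. RFNG, of the Fringe family that tunes the choice of ligand, rose by 0.46. The GXYLT1 call was lost without si-CHAF1A 1 (log2 fold change -0.31, adjusted p = 0.061) or si-Ctrl 1 (-0.29, adjusted p = 0.0525), and that of RFNG without si-CHAF1A 3 (0.34, adjusted p = 0.0566).

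Ubiquitin ligases and endocytic regulators were higher in 2 and lower in 3 of 15 tested, so the 33.3% called lay near the 37.8% over all tested genes. MIB1, which drives ligand uptake in the sending cell, fell by 0.36 on the log2 scale, and its relative MIB2 rose by 0.44. FBXW7, which marks the cut receptor for destruction, fell by 0.38, and the kinase AAK1 fell by 0.23. Of these, the MIB2 call was lost without si-CHAF1A 1 (0.34, adjusted p = 0.076) or si-Ctrl 3 (0.33, adjusted p = 0.0616), and the FBXW7 call without si-CHAF1A 1 (-0.32, adjusted p = 0.0558). AAK1 lost its call without si-CHAF1A 1, si-CHAF1A 2, si-CHAF1A 3 or si-Ctrl 3, with log2 fold changes from -0.237 to -0.205.

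Coactivators were lower in 4 and higher in 1 of 7, where 19.3% and 18.5% of all tested genes were. The acetyltransferase KAT2B stood at 28.8 ± 2.12 CPM in si-CHAF1A and 42.2 ± 4.08 CPM in si-Ctrl, a fall of 0.55 on the log2 scale (edgeR adjusted p = 0.000238). The relatives of MAML1 split, with MAML3 lower (-0.54) and MAML2 higher (0.39), while SNW1 fell by 0.23. MAML2 lost its call without si-CHAF1A 2 (0.37, adjusted p = 0.0567) or si-CHAF1A 3 (0.35, adjusted p = 0.0672), and MAML3 without si-CHAF1A 3 (-0.46, adjusted p = 0.0632). SNW1 lost its call without si-CHAF1A 1, si-CHAF1A 2 or si-Ctrl 1 (log2 fold changes of -0.22, -0.21 and -0.20) and with library totals (-0.18). Corepressors that act with RBPJ were higher in 5 and lower in 4 of 18, or 50% called against 37.8% of all tested genes. KDM5A, a histone demethylase, had 65.3 ± 2.38 CPM in si-CHAF1A and 95.5 ± 1.30 CPM in si-Ctrl, a fall of 0.55 on the log2 scale. HDAC1, a histone deacetylase, rose by 0.34 on the log2 scale, and the Groucho-family corepressor TLE4 rose by 0.36.

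Genes listed here as Notch targets, beyond HES1 and HEY1, were higher in 4 and lower in 3 of 11 tested. That is 63.6% called, against that same 37.8%. The list includes further HES family members, and whether each listed gene answers to Notch in these cells was not tested. CCND1, which encodes cyclin D1 and answers to many pathways, stood at 735 ± 31.3 CPM in si-CHAF1A and 1378 ± 52.0 CPM in si-Ctrl (a log2 fold change of -0.91 with SE 0.06, edgeR adjusted p = 1.85e-08). The repressor BHLHE40 fell by 0.62 on the log2 scale. ID1 rose by 0.45, and HES2 rose by 1.36 at a level of 4.92 ± 1.02 CPM in si-CHAF1A and 1.905 ± 0.425 CPM in si-Ctrl. The remaining listed genes in this paragraph were named after their values were seen. HES6 and HES7 also rose (0.37 and 0.86, HES6 at 0.31 and an adjusted p of 0.0556 without si-CHAF1A 1). NRARP, a feedback inhibitor of Notch, HES4 and MYC did not pass, with log2 fold changes of 0.02, 0.07 and 0.04. SOX9, which marks bile duct cells as well as being listed as a target, fell by 0.26.

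**Figure D4:**
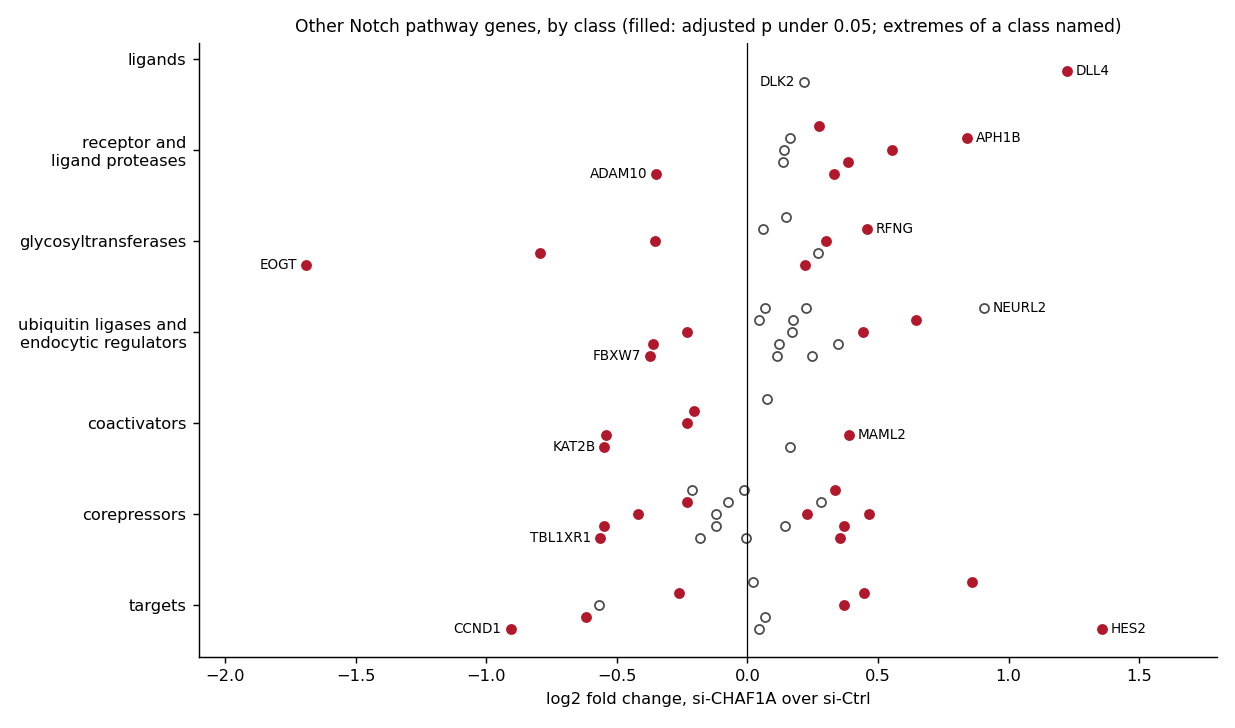
Log2 fold change of si-CHAF1A over si-Ctrl (horizontal axis) for the 71 tested genes of the wider Notch pathway, 1 row per class, where each point is a gene and points are spread vertically only for legibility; filled red points passed the test and open grey points did not. The lowest and the highest gene of each class are named (the lowest alone for corepressors), with NEURL2, TBL1XR1 and DLK2 shown for that position alone, and EOGT and CCND1 mark the largest falls.

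The genes whose pattern over the 6 libraries lay nearest to that of JAG1 were COL13A1, NCAPD2 and RAB3B, by the root mean square difference of mean-centred log2 CPM (0.0262, 0.0291 and 0.0302). NCAPD2, a condensin subunit, had log2 fold change -0.68 and stood at 158, 159 and 158 CPM in si-CHAF1A libraries, against 251, 256 and 256 CPM in si-Ctrl libraries. This likeness is mostly the difference between the groups.

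Genes that overlap the members held few counts. An antisense gene within NOTCH1 had 2 to 11 counts per library, and one that shares 79 exon bases with JAG1 had 0 to 3. A processed transcript that shares 469 exon bases with JAG2 on the same strand was at 0 in all libraries, and the handling of reads in the shared bases is not stated in the labels.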

How the data were processed

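Gene-level read counts of 6 RNA-seq libraries (150 bp reads) were used as the authors deposited them, as 1 table of whole-number counts not normalised. The submitters' processing notes list fastp 0.20.1, HISAT2 2.1.0, SAMtools 1.9, featureCounts 2.0.1, StringTie 2.1.4 and the build hg38. The sources used here do not give the annotation release, the strand setting or the treatment of multi-mapping reads. Columns named NC and si were matched to si-Ctrl and si-CHAF1A by group and number, reading NC as negative control, and the CHAF1A level in each library bears on that reading. No column of other samples (0) and no row without a gene identifier (0) was present. Replicates are described as biological without further detail, and p-values cover only the spread among these 6 libraries.

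Symbols came from a gene name table, and positions and transcript lengths from GENCODE 29 (GRCh38, the same assembly as hg38). Genes were kept by filterByExpr (minimum count 10, minimum total 15), which left 15911 of 63186. Differences were tested with edgeR 4.0.16 (R 4.3.3), robust quasi-likelihood test, TMM scaling, Benjamini-Hochberg adjustment over all tested genes, threshold 0.05. CPM were computed here from the counts, also for genes under the filter, with the same scaling. SE is the size of the log2 fold change divided by the square root of F, and intervals use the matching t quantile. Alternatives used DESeq2 1.42.0 and limma 3.58.1. The test was also run on simulated counts as a check. The members, the gene lists and the rule for named genes (all members, CHAF1A, and up to 4 called genes per class with the smallest adjusted p) were chosen with earlier results of these data known. For corepressors, a value this rule would take is not reported here.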

Additional observations from a re-analysis of the deposited data

How the results depend on the processing

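Under 7 other settings (DESeq2 size factors, library totals, DESeq2, limma-voom, no filter, a mean CPM of at least 1, and a replicate block) 3 Notch members were higher and 2 lower, except with library totals, where MAML1 made 4 higher. Leaving out each of the 6 libraries gave 2 to 4 higher and 2 to 3 lower members, 14 to 26 higher and 13 to 19 lower genes of the wider list, and 2346 to 3519 higher and 2358 to 3709 lower genes in all. Over all of these settings NOTCH1 stayed between 0.33 and 0.49, NOTCH2 between -0.36 and -0.29, JAG1 between -0.66 and -0.59 and RBPJ between 0.20 and 0.37 on the log2 scale, past the test each time. Library totals moved the median of all genes to 0.05, with 3447 genes higher and 2455 lower (58.4% of calls higher, against 49.0% with TMM scaling), and 24 higher and 16 lower in the wider list. Among genes that did not pass, leaving out 1 library moved JAG2 between 0.003 (without si-Ctrl 1) and 0.152 (without si-Ctrl 2), MYC between 0.010 (without si-Ctrl 3) and 0.096 (without si-Ctrl 2), HES4 between -0.018 (without si-Ctrl 1) and 0.21, and NRARP between -0.054 (without si-CHAF1A 1) and 0.079. The replicate numbers were not treated as pairs: deviations of same-numbered libraries correlated at -0.09, -0.06 and 0.00, and no library correlated best with its own number. With the replicate block 2675 genes were higher and 2723 lower, 3 and 2 of them members, and 21 and 17 of the wider list. NOTCH3 and HEY1, with under 40 counts in every library, are limited by depth.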
